A study of Mus musculus with 3 samples.

Results

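The region described here is the stretch of mouse chromosome 7 that lies 5 to 10 Mb from the β-globin viewpoint on the side of the locus control region, at positions 115976216 to 120976215 of the genome build mm9. Its members are all listed DpnII fragments whose midpoint falls in that interval, and there are 3789 of them among the 48123 fragments listed for the chromosome. The rule selects by position alone, but only among listed fragments, and the list itself may be related to reads. The data are 3 next-generation Capture-C profiles of 1 group: erythroid cells of mouse fetal livers taken at E12.5, expanded in culture for 6 days, selected for CD117, left to recover for 6 h and sampled at the 24 h time point of differentiation, which the labels place at the late erythroid stage. All 3 samples carry a homozygous deletion of the β-globin enhancers HS2 and HS3, and their strain is given as mixed, so the profiles show contacts in the absence of both enhancers. Wild-type cells were not analysed here, and nothing below compares the deletion with an intact locus. Cells of individual livers were cultured, but no label ties a sample to its own liver, and the p-values below measure only the spread between these samples, which may be technical.

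Capture-C counts how often a chosen fragment, the viewpoint, is found ligated to other fragments after chromatin has been crosslinked, cut and religated. Ligation frequency falls steeply with distance along the chromosome, and contacts over several Mb are rare events. At such distances they are known to follow compartments: active chromatin tends to meet active chromatin, and inactive chromatin meets inactive chromatin. The β-globin locus control region is a cluster of DNase hypersensitive sites, among them HS2 and HS3, that drives the globin genes in erythroid cells and lies on the side of higher coordinates here.

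The deposited table gives raw read counts per fragment in 3 unnumbered columns, called here the first, the second and the third, which are taken as the 3 samples. They hold 49433, 49247 and 37382 reads on chromosome 7, called cis reads below. A fragment with no read in a column may still have a share of cis reads of up to 0.00607%, 0.00609% and 0.00803% in the respective columns, the limit that 3 reads set. Intervals and limits of this kind cover counting error only. The pairs of columns varied by more than counting noise over the 93 windows of 20 kb within 1 Mb of the viewpoint that held enough reads, with a chi-square per degree of freedom of 4.13 for the first and the second column, 1.82 for the first and the third and 2.60 for the second and the third. Over the region's own 50 windows of 100 kb the respective values were 0.92, 1.52 and 1.69, so the first and the second column did not differ there by more than counting noise. They were kept as separate samples because they did differ nearer the viewpoint.

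The first column held 2477 reads in the region, the second 2651 and the third 1828, 6956 in all. These were 5.01% of the cis reads of the first column (95% exact binomial interval 4.82 to 5.21), 5.38% of the second (5.19 to 5.59) and 4.89% of the third (4.67 to 5.11), a mean of 5.09% ± 0.26 (SD, n = 3). The intervals of the first and the third column overlap, and that of the second touches only the first. The listed fragments cover 1963 kb, or 39.3% of the region's sequence. Contact density is given below as reads per listed kb per 100000 cis reads. It was 2.55 in the first column, 2.74 in the second and 2.49 in the third, a mean of 2.60 ± 0.13 (SD, n = 3). The denominator matters, because a fragment that is not listed counts neither as sequence nor as reads. Per kb of all sequence the density was 1.02 ± 0.051, and per listed fragment it was 1.34 ± 0.068 (SD, n = 3 for both).

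Density was higher in the region than at the same distance on the other side of the viewpoint. That range has 2949 listed fragments over 31.2% of its sequence, and its density was 2.08, 2.36 and 2.07 in the 3 columns in order, a mean of 2.17 ± 0.16 (SD, n = 3). The ratio of the region to the other side was 1.23, 1.16 and 1.20 in the respective columns, a log2 difference of 0.26 ± 0.037 (SD, n = 3), above 0 in 3 of 3 columns. The exact two-sided sign-flip permutation test gave p = 0.25, which is the smallest value that 3 samples allow, so a difference of any size misses the usual threshold. The log2 difference was 0.14 without the 2 windows of highest density and 0.16 with each fragment counted once per column. Per listed fragment the mean ratio was 1.17, and per kb of all sequence it was 1.5, because more of the sequence is listed on the side of the locus control region.

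Along its own side, the region lay between its neighbours in density. The stretch from 1 to 5 Mb had 2.79 ± 0.036 and the stretch from 10 to 15 Mb had 2.19 ± 0.19 (SD, n = 3 for both). The region was 0.929 times the nearer stretch on average, with ratios of 0.927, 0.971 and 0.892 by column, and it was 1.19 times the farther one, with ratios of 1.23, 1.14 and 1.19 (exact sign-flip p = 0.25 for each, the smallest possible). The order against the nearer stretch rests on the denominator: per listed fragment the ratios were 0.962, 1.01 and 0.925, on both sides of 1, with p = 0.5 in the same exact test. These 3 comparisons are 1 family, and none can pass a threshold of 0.05 with or without adjustment. At the edges of the region, the 100 kb window just inside 5 Mb had a density of 1.95 ± 0.56 and the one just outside 2.34 ± 0.79, while the window just inside 10 Mb had 1.76 ± 0.27 and the one just outside 1.97 ± 0.19 (SD, n = 3). The ranges overlap across both boundaries, though at 5 Mb the outer window was the denser in all 3 columns (2.66, 2.91 and 1.44, against 2.29, 2.25 and 1.31 inside), and at 10 Mb the columns differ in sign.

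Within the region, contacts did not fall smoothly with distance. In 1 Mb segments the density was 2.64 ± 0.26 at 5 to 6 Mb, 2.97 ± 0.026 at 6 to 7 Mb, 2.89 ± 0.18 at 7 to 8 Mb, 1.84 ± 0.14 at 8 to 9 Mb and 2.10 ± 0.17 at 9 to 10 Mb (SD, n = 3). The segment at 6 to 7 Mb read 2.94, 2.99 and 2.98 in the 3 columns in order, above all 3 values of the segment nearer the viewpoint, which read 2.71, 2.86 and 2.35. Between segments, the widest step was at 8 Mb. The values were 2.71, 3.08 and 2.87 before it and 1.73, 2.00 and 1.79 after it, with no overlap. The grid of segments sets this place, since windows of 100 kb were already low from 7.4 Mb. The mean density was 2.53 ± 0.20 at 7.3 to 7.4 Mb and 1.54 ± 0.39 at 7.4 to 7.5 Mb (SD, n = 3). The windows from 7.4 to 8.0 Mb had means of 1.54 to 2.32. The segment at 9 to 10 Mb was denser than the one before it in each of the 3 columns, at 2.10, 2.28 and 1.94, although the ranges overlap. The columns differ in sign between the segments at 6 to 7 and 7 to 8 Mb. The segments also differ in how much of them is listed, with 48.7%, 52.4%, 40.6%, 24.7% and 29.8% in order of distance.

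**Figure D1:**
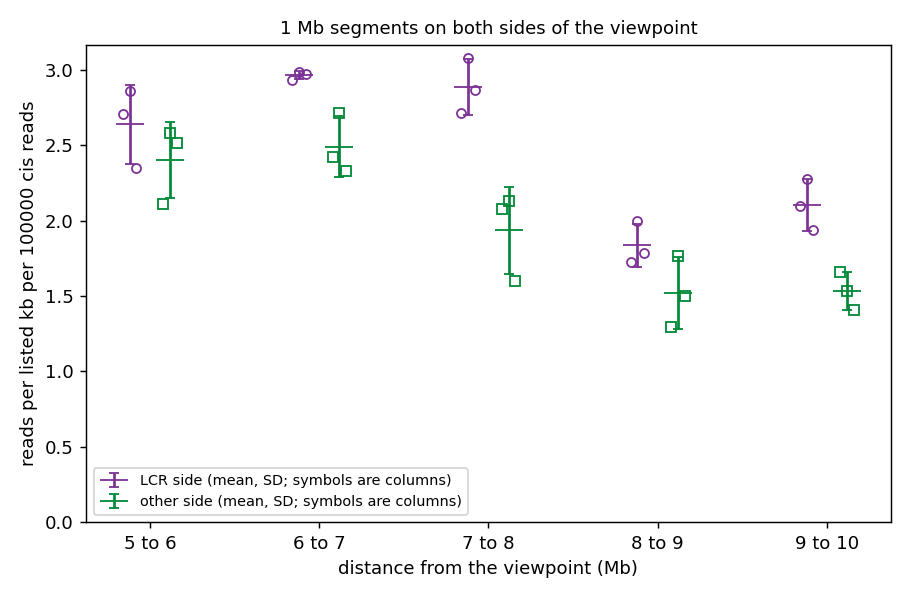
Contact density (reads per listed kb per 100000 cis reads) in 1 Mb segments 5 to 10 Mb from the viewpoint, on the side of the locus control region (circles) and on the other side (squares). Each symbol is 1 column, and the bars give the mean and SD of the 3 columns. On the side of the locus control region the segments up to 8 Mb have means of 2.64 to 2.97, and the segment at 8 to 9 Mb has 1.84.

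The other side also declined over these segments. Its densities were 2.40 ± 0.25, 2.49 ± 0.20, 1.94 ± 0.29, 1.52 ± 0.24 and 1.53 ± 0.12 in the same order of segments (SD, n = 3). The gap between the sides was widest at 7 to 8 Mb, where the 3 columns read 2.71 to 3.08 on the side of the locus control region and 1.60 to 2.13 on the other. At 5 to 6 Mb the columns differ in sign between the sides. Window by window, 48 windows of 100 kb could be set against the one at the same distance opposite: in all 3 columns 15 were denser on the side of the locus control region and 9 on the other, and 24 were mixed. A straight line through the 50 windows of 100 kb, on log scales of density and distance, had a slope of -0.73, -0.53 and -0.55 in the 3 columns in order, a mean of -0.60 ± 0.11 (SD, n = 3). Per kb of all sequence the mean slope was -2.07.

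All 50 windows of 100 kb in the region had at least 10 listed kb and 10 expected reads, the minimum for the test. The reads of the 3 columns in a window ranged from 21 to 588, with a median of 77, and the density from 1.07 to 5.80, with a median of 2.07. Each window was compared with the density expected at its distance, taken from both sides of the viewpoint. The test was edgeR's quasi-likelihood test, with Benjamini-Hochberg adjustment over the 615 windows of the chromosome beyond 1 Mb. The tested windows, those of the region included, also entered the curve of expected density. That curve was level from 5 to 7 Mb, so calls there are departures from a constant density and not from a falling trend. In the region 6 windows were higher than expected at an adjusted p under 0.05 (12% of its windows, against 6.5% of all 615) and 3 were lower (6.0%, against 6.02%). The share of lower windows is thus near the background. The share of higher windows is above it in this fit, but that difference was not tested, and DESeq2 called only 3 higher. The share that DESeq2 called over all windows is not given here, so its count has no background beside it. The region's windows also held more reads than all windows (median 77 against 55) and had more of their sequence listed (median 33.7% against 24.9%). The part of this in the share was not tested. On the other side at the same distance, 2 of 48 windows were higher and 2 were lower. By sign alone, 10 of the 50 windows were above expectation in all 3 columns (20%, against 11.7%), 26 were below in all 3 (52%, against 44.6%) and 14 were mixed. More windows lie below than above here as on the whole chromosome, and the median ratio of observed to expected reads was 0.831 in the region and 0.825 over all windows.

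The split between higher and lower windows depended on the scale. It was 6 and 3 as reported, 6 and 7 against the region's own mean density, 6 and 6 with TMM scaling, 6 and 5 against a power law of distance, 5 and 1 per listed fragment, and 15 and 29 per kb of all sequence. The last scale counts every unlisted stretch as sequence without reads. Shares of all windows called are given here only for the fit as reported, so the other counts do not compare the region with the chromosome.

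**Figure D2:**
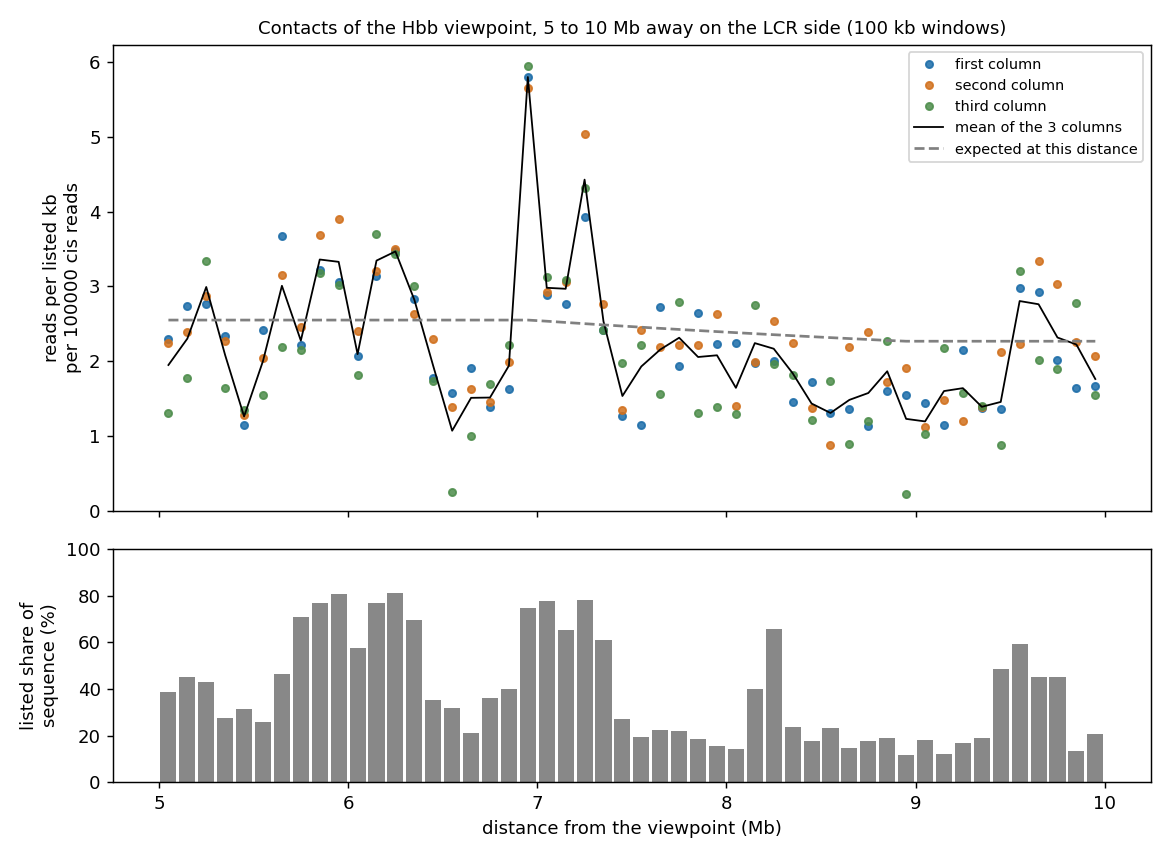
Upper panel: contact density (reads per listed kb per 100000 cis reads) in the 50 windows of 100 kb against distance from the viewpoint in Mb; points are the columns, the line is their mean and the dashed line the density expected at that distance. Lower panel: the percent of each window's sequence that is listed; the windows at 6.9 to 7.0 and 7.2 to 7.3 Mb reach mean densities of 5.80 and 4.43, and listed sequence is high around 6 and 7 Mb.

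The highest window lay 6.9 to 7.0 Mb from the viewpoint, at 117876216 to 117976215. It held 214, 208 and 166 reads in the 3 columns in order, which is a density of 5.79, 5.65 and 5.94. It was the highest window of the region in every column. The mean ratio to expectation was 2.27 ± 0.057 (SD, n = 3; edgeR quasi-likelihood adjusted p = 8.3e-08). Among all 615 windows its ratio ranked 5, and among the 535 windows beyond 5 Mb on either side it ranked 4. The window at the same distance on the other side had a density of 1.95 ± 0.33. It stayed past the threshold in all 13 other settings that keep these windows, with a highest adjusted p of 0.018 when the third column was left out.

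The next lay 7.2 to 7.3 Mb away, at 118176216 to 118276215, with 152, 194 and 126 reads and densities of 3.93, 5.04 and 4.31. It ranked second in the region in every column, and the columns spread more than in the highest window. Its ratio was 1.77 ± 0.22 (SD, n = 3; edgeR adjusted p = 1.4e-05), and the window opposite had a density of 1.44 ± 0.38. With the third column left out its edgeR adjusted p was 0.064, against 2.8e-12 without the first and 3.9e-08 without the second. The windows between these, from 7.0 to 7.2 Mb, were not called.

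The other 4 higher windows lie close together between 5.8 and 6.3 Mb and are smaller departures. The window at 6.2 to 6.3 Mb held 139, 140 and 104 reads and was 1.36 ± 0.015 times expectation (edgeR adjusted p = 0.0034). The window at 5.8 to 5.9 Mb held 122, 139 and 91 reads and was 1.32 ± 0.11 times expectation (adjusted p = 0.013). The window at 6.1 to 6.2 Mb held 119, 121 and 106 reads and was 1.31 ± 0.12 times expectation (adjusted p = 0.017). All 3 columns were above expectation in each, and in each the call was lost when the third column was left out. Their ratios without that column, from summed reads, were still 1.37, 1.35 and 1.24 in the same order. The window at 5.9 to 6.0 Mb held 122, 155 and 91 reads and was 1.30 ± 0.20 times expectation (adjusted p = 0.022). It was the least stable of the higher windows, since per listed fragment it was 1.21 times expectation with an adjusted p of 0.14. Without the third column, the window at 6.9 to 7.0 Mb was the only higher call in the region and no lower call remained, although 8 higher and 8 lower windows had an unadjusted edgeR p under 0.05.

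The 3 lower windows lie between 5.4 and 6.8 Mb, in the nearer part of the region, where the higher ones also lie. The window at 6.5 to 6.6 Mb, from 117476216, held 25, 22 and 3 reads, a density of 1.58, 1.39 and 0.251. The third column sits far below the others there, and the ratio was 0.42 ± 0.28 (SD, n = 3; edgeR adjusted p = 0.038). The window at 5.4 to 5.5 Mb, from 116376216, held 18, 20 and 16 reads and was 0.50 ± 0.040 times expectation (adjusted p = 0.011). The window at 6.7 to 6.8 Mb, from 117676216, held 25, 26 and 23 reads and was 0.59 ± 0.063 times expectation (adjusted p = 0.028). The last pair read nearly alike in all columns. None of the 3 contains a fragment with reads in all 3 columns, but this also holds for many windows that were not called. Among those are the windows at 7.7 to 7.8 and 9.8 to 9.9 Mb, with ratios of 0.95 and 0.98. The listed fragments of the 3 lower windows are long, with mean lengths of 616, 644 and 684 bp against 448 bp in the highest window. Per listed fragment their ratios were 0.54, 0.62 and 0.78 with adjusted p-values of 0.13, 0.11 and 0.28, so all 3 lower calls rest on counting per kb.

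Windows below expectation in all 3 columns without being called lie along the whole region, before and beyond 7.4 Mb. Together with the 3 called lower they make up 26 of the 50 windows (52%, against 44.6% of all 615). Examples are the window at 9.0 to 9.1 Mb, with a ratio of 0.53 and an adjusted p of 0.056, and the window at 9.3 to 9.4 Mb, with densities of 1.38, 1.39 and 1.41 by column and an adjusted p of 0.090. These examples were picked after their values were seen.

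The listed share of the sequence moved with density along the region. It ranged from 11.7% to 81.1% per window, with a median of 33.7%, and its Spearman correlation with mean density over the 50 windows was 0.73 (0.66, 0.69 and 0.65 by column), given as a description, since the windows share libraries and the list itself may be related to reads. The 20 windows with under 25% of their sequence listed had a density of 1.73 ± 0.12 and held 12.3% of the region's reads. The 16 windows at 25 to 50% had 2.08 ± 0.23 and held 25%. The 14 windows with 50% or more had 3.23 ± 0.12 (SD, n = 3) and held 62.8%. All 6 higher calls fall in this last class, and all 3 lower calls fall in the middle one. The rule by which fragments were listed is not known here. In the region 646 listed fragments (17.0%) had no read in any column, so the list was not drawn from these columns alone. The part of the listing in the density differences was not tested.

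**Figure D3:**
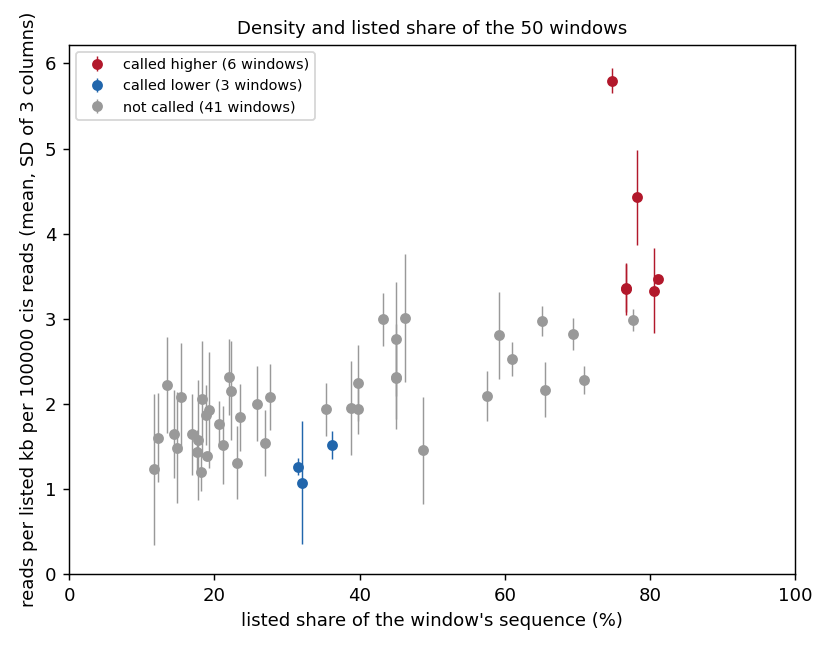
Mean contact density of each of the 50 windows (reads per listed kb per 100000 cis reads, with the SD of the 3 columns) against the percent of the window's sequence that is listed. Red points are the 6 windows called higher, of which the pair at 5.8 and 6.1 Mb lie on each other, blue points the 3 called lower and grey points the 41 not called; every higher call has over 50% of its sequence listed.

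Windows next to each other resembled one another. The Spearman correlation of mean density was 0.61 for windows 100 kb apart (49 pairs), 0.22 at 200 kb, 0.11 at 300 kb, 0.0025 at 500 kb and 0.26 at 1000 kb. The listed share kept its likeness further, with 0.73, 0.48, 0.31, 0.18 and 0.34 at the same separations. Grouping windows by a listed share above or below 50%, a rule set after the data were seen, gives alternating stretches. A densely listed stretch from 5.7 to 6.4 Mb (73.3% listed) had a density of 3.01 ± 0.14 and held 30.2% of the region's reads. A sparse stretch from 6.4 to 6.9 Mb (32.9% listed) had 1.62 ± 0.16 and held 5.28%. A second dense stretch from 6.9 to 7.4 Mb (71.3% listed) had 3.81 ± 0.17 and held 26.6%. The longest sparse stretch, 12 windows from 8.3 to 9.5 Mb (20.2% listed), had 1.51 ± 0.19 (SD, n = 3) and held 7.22%. The columns of the dense stretches lie above all columns of the sparse ones among these 4, but the order does not hold over all stretches. The dense windows are not all high: the window at 8.2 to 8.3 Mb has 65.5% listed and a density of 2.17 ± 0.32. The sparse stretches at 5.0 to 5.7 Mb (2.31 ± 0.32) and 9.6 to 10.0 Mb (2.38 ± 0.47) had higher means than that window.

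The 2 densest short stretches lay inside the 2 highest windows. Each is the densest part of its window by choice, so it stands above the rest of that window. In bins of 10 kb, 165 of the region's 500 bins had at least 5 listed kb, and their median density was 2.44. The bin at 6.94 to 6.95 Mb, from 117916216 to 117926215, held 92, 94 and 75 reads, a density of 17.9, 18.4 and 19.3. It was the highest bin in every column, with a mean of 18.5 ± 0.71 (SD, n = 3). It held 44.4% of its window's reads on 13.9% of the window's listed kb. The signal was spread over the bin's 23 fragments, which had 2 to 23 reads each with a median of 11, and 19 of them had reads in all 3 columns. The bins on either side had 5.09 ± 0.60 and 4.83 ± 0.98. Without this bin, the rest of the window still had a density of 3.74 ± 0.13.

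The second bin lay in the second window, at 7.24 to 7.25 Mb (118216216 to 118226215). It held 42, 45 and 35 reads and had a density of 9.56 ± 0.48 (SD, n = 3). It took 25.8% of its window's reads on 12% of its listed kb, and 9 of its 18 fragments had reads in all 3 columns. The rest of that window had 3.72 ± 0.60, against 4.43 ± 0.56 for the whole window, and was close to the rest of the first window. The bin beyond it, at 7.25 to 7.26 Mb, read 19, 38 and 21 reads, so the columns disagree on how far the raised stretch extends. The bins that follow in rank lay at 5.68 to 5.69 Mb, with 8.89 ± 1.82, at 5.80 to 5.81 Mb, with 8.71 ± 0.65, and at 8.19 to 8.20 Mb, with 6.21 ± 1.42. The bin at 5.68 to 5.69 Mb and the bin at 8.19 to 8.20 Mb sit in windows that were not called. They held 96 of 194 and 76 of 119 reads of their windows, in that order. A large share of reads in 1 bin is thus not particular to the 2 highest windows. The reference tables at hand are of another build, so no gene was assigned to these positions and no sequence is shown.

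**Figure D4:**
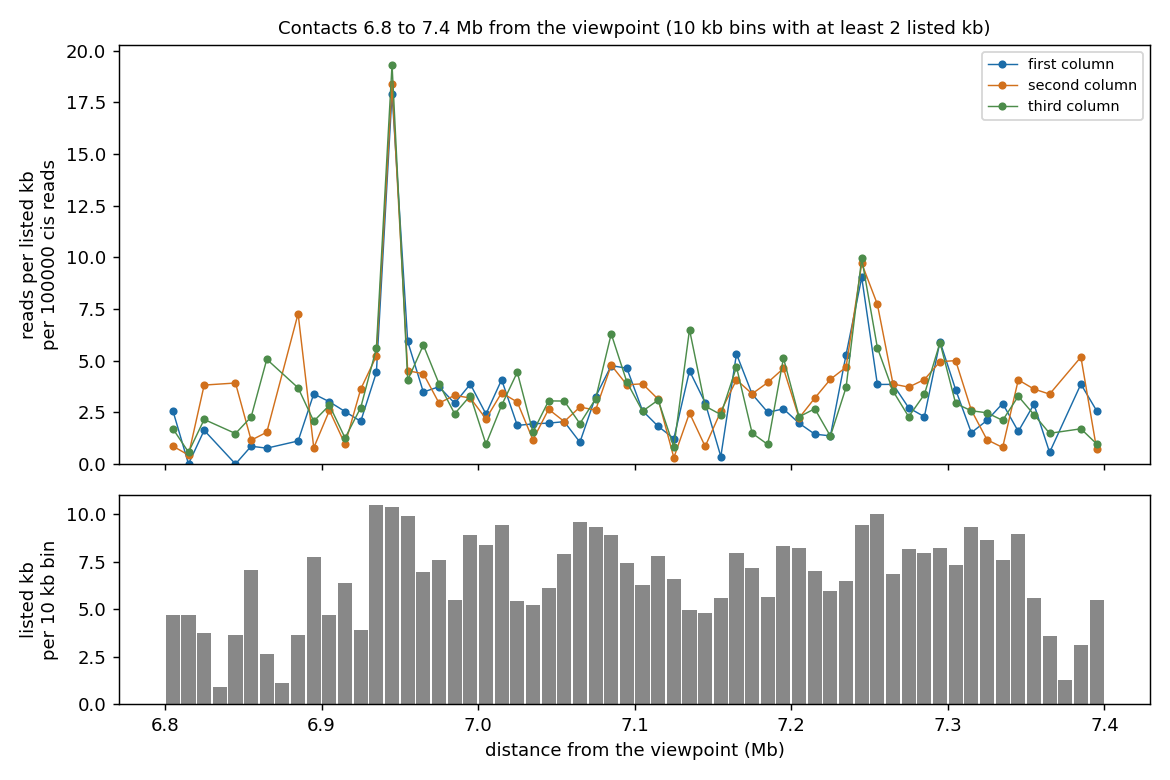
Upper panel: contact density (reads per listed kb per 100000 cis reads) in bins of 10 kb between 6.8 and 7.4 Mb from the viewpoint, 1 line per column, for bins with at least 2 listed kb. Lower panel: listed kb per bin, where a fragment counts in the bin of its midpoint and a bin can slightly exceed 10 kb; the 3 columns rise together at 6.94 to 6.95 Mb to 17.9, 18.4 and 19.3.

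Single fragments carried few reads. Of the 3789 members, 2346 (61.9%) had reads in 1 column, 629 (16.6%) in 2 columns and 168 (4.43%) in all 3, and 1360 (35.9%) had a single read in all. The share of members with reads was 37.8%, 40.9% and 29.7% in the 3 columns in order, lowest in the column with the fewest cis reads. Members with 5 or more reads numbered 246 and held 25.4% of the reads. The 32 members with 10 or more reads held 6.17%, and 18 of these 32 lie in the 2 highest windows. The 5 members with the most reads held 98 reads, 1.41% of the region's total, so no small set of fragments carries the region.

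The top member, at 117917470 to 117918292 (823 bp), had 11, 11 and 1 reads in the 3 columns in order. The second, at 118226083 to 118226344 (262 bp), had 5, 12 and 4. The third, at 118224673 to 118226069 (1397 bp), had 5, 6 and 8. The fourth, at 117922787 to 117923689 (903 bp), had 3, 4 and 11, and the fifth, at 117925049 to 117925366 (318 bp), had 6, 6 and 5. All 5 lie in or beside the 2 highest bins, and each was read in all 3 columns. Their order differs from column to column, and at this depth it cannot be told which fragment of a bin is highest.

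Reads per fragment varied less with its length than reads per kb did. Members of 100 bp or less had 1.39 reads each over the 3 columns, those above 300 and up to 500 bp had 1.86, those above 500 and up to 1000 bp had 2.00, and the 33 members above 2000 bp had 1.30. Per kb the same classes had 22.1, 4.72, 2.84 and 0.558 reads, so a density per listed kb gives windows of short fragments a higher value than the same reads on long ones. The median length of a member was 404 bp. Of the 3788 neighbouring pairs of members, 1745 (46.1%) adjoin, and the longest gap in the list, 18724 bp, lies at 120038573 to 120057296, 9.06 to 9.08 Mb from the viewpoint.

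The columns agreed on the pattern of windows more than on single fragments. The Spearman correlation of window densities was 0.73 between the first and the second column, 0.58 between the first and the third and 0.65 between the second and the third, over 50 windows that are not independent replicates. In the 23 windows with at least 100 reads, the SD of log2 density was 0.44 between windows and 0.24 between columns of a window. The first SD is of means over the 3 columns, the second of single columns. In the 27 windows with fewer reads the respective values were 0.37 and 0.54. The order of those windows thus cannot be read from a single column and stays uncertain in the mean. The 3 windows called lower, with 50, 54 and 74 reads, are among them. Among fragments the columns did not simply go together. A read in the second column was found for 54.1% of the 194 members with 3 or more reads in the first, for 26.9% of the 1239 members with 1 or 2 reads, and for 47.2% of the 2356 members with none, against 40.9% of all members. Over the 6 ordered pairs of columns these shares were 42.8% to 58.4%, 19.2% to 28.3% and 33.2% to 47.2%, with the middle class lowest in every pair. The part of the listing of fragments in this order was not tested.

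The counts per fragment had an excess of exactly 2 reads. In the first column 718 members had 1 read, 521 had 2 and 112 had 3. In the second column these numbers were 808, 543 and 106, and in the third column 625, 388 and 60. There were thus 0.726, 0.672 and 0.621 members with 2 reads for each with 1, but 0.215, 0.195 and 0.155 with 3 for each with 2. The step from 1 to 2 reads is thus much shallower than the step from 2 to 3. Reads on a fragment may then not all be separate molecules, and the counting intervals above may be too narrow. The cause was not tested. With each fragment counted once per column whatever its reads, the test gave 4 higher windows and 1 lower window in the region. The shares over all windows in that fit are not given here.

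**Figure D5:**
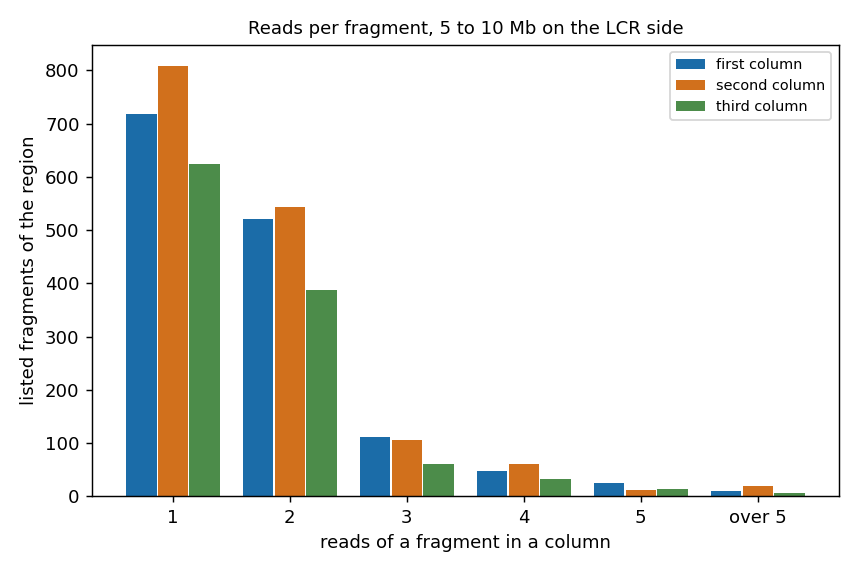
Number of listed fragments of the region (vertical axis) by the number of reads a fragment has in a column (horizontal axis), with 1 bar per column. For each fragment with 1 read there are 0.726, 0.672 and 0.621 with 2 reads in the 3 columns, and for each with 2 there are 0.215, 0.195 and 0.155 with 3.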

How the data were processed

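Per the labels, next-generation Capture-C libraries were made from cells fixed with 2% formaldehyde for 10 min and cut with DpnII. The submitters' processing notes name Trim Galore, Bowtie2 and mm9, with no version. The counting of reads, the handling of duplicates and the choice of listed fragments are not given in the sources used here. Deposited by the authors were raw read counts per fragment of chromosome 7 in 3 count columns with no replicate numbers, and all 3 were used.

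The viewpoint centre was set at 110976215. If the profile joins several neighbouring viewpoints, distances shift by an amount that is small beside 5 Mb. Windows of 100 kb beyond 1 Mb, with at least 10 listed kb and 10 expected reads, were tested with edgeR 4.0.16 (R 4.3.3): the offset was cis total × listed kb × a monotone curve of density on distance (10 bins per decade), and the quasi-likelihood F was computed from edgeR's fit for an intercept of 0. The spread between columns was estimated with sharing over all windows. Where the fitted variance fell below Poisson counting noise, the larger of that p and a Poisson likelihood-ratio p was used. The error of the curve is not in the p-values. DESeq2 1.42.0 and limma 3.58.1 were alternatives. The fit was tested on simulated data. Windows were named if past adjusted p 0.05 and on 1 side in all 3 columns (at most 10 each way), with the 5 fragments of most reads. The members follow a rule of position among listed fragments, but the region, like the lists, was chosen with earlier results of these data known.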

Additional observations from a re-analysis of the deposited data

How the results depend on the processing

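The count of windows higher than expected (6 of 50) was 12 of 78 with windows of 50 kb, 15 per kb of all sequence, 3 with DESeq2 and 1 to 6 when a column was left out. The count of lower windows (3 of 50) was 7 against the region's own mean, 5 against a power law, 6 with TMM scaling, 5 of 78 with windows of 50 kb, 5 of 20 with windows of 250 kb, 1 per listed fragment, 29 per kb of all sequence, and 0 to 4 when a column was left out (0 with edgeR without the third column, where 8 lower windows had an unadjusted p under 0.05). Chosen after seeing the data, windows shifted by 50 kb gave 5 of 49 lower and each fragment counted once gave 1. Without the shares of all windows called under each setting, these counts do not compare the region with the chromosome. The median log2 ratio of all windows was -0.28 as reported, -0.15 against a power law and -0.13 per kb of all sequence. The region's density (2.60) was 1.02 per kb of all sequence, 1.34 per fragment, 4.09 with totals taken beyond 100 kb, 3.17 over fragments with a read, 2.38 without the 2 highest windows (chosen after seeing the data) and 2.52 to 2.65 when a column was left out. The log2 difference from the other side (0.26) was 0.59 per kb of all sequence, 0.14 without the 2 highest windows, 0.16 with each fragment counted once, and 0.24 to 0.28 when a column was left out. The slope (-0.60) was -2.07 per kb of all sequence, -0.46 with each fragment counted once, and -0.64 to -0.54 when a column was left out. No named window reversed under the settings tried. The causes of these shifts were not tested. No pairing of samples between groups was possible because the columns carry no replicate numbers and there is 1 group. The comparisons of the region with other ranges were made within each column. Depth limits windows under 100 reads, where single columns of a window differ more than the means of windows do.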

Other observations

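The excess of fragments with exactly 2 reads was not limited to the region 5 to 10 Mb away. Over the 44553 listed fragments of chromosome 7 beyond 1 Mb from the viewpoint, 7824 had 1 read in the first column, 5100 had 2 and 960 had 3. In the second column 8703 had 1 read, 5667 had 2 and 1042 had 3, and in the third 6725 had 1, 4032 had 2 and 662 had 3. The number with 2 reads for each with 1 was 0.652, 0.651 and 0.600 in the respective columns.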
